A study of Mus musculus with 12 samples.

Results

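The mitochondrial ribosomal proteins are described here in naive CD4 T cells, through the probe sets whose 1 gene symbol in the array annotation has the form Mrpl or Mrps followed by a number and, in some, a letter. The rule found 85 probe sets for 77 genes, of 28853 probe sets in all and of 19938 genes with a probe set of their own. Of the 77 genes, 8 had 2 probe sets. A further probe set that carries Mrpl53 together with another symbol falls outside the rule and was not used here. Per the labels, the cells came from C57BL/6 mice, either wild type (WT) or carrying a transgene for PP2Ac, which is the Ppp2ca product and the catalytic part of the phosphatase PP2A. The WT animals were the controls, although a source label also attaches the word transgenic to them, and no promoter is named for the transgene. Cells were left unstimulated (0 h), or received antibodies for 6 h or 24 h, at 0.25 ug/mL against CD3 and 0.5 ug/mL against CD28, together with plate-bound goat anti-hamster antibody. Both genotypes at the 3 times make 6 groups, and each group has 2 one-colour arrays, 1 with a title marked Rep. Whether these are separate mice or cultures is not stated. The p-values therefore reflect only how far these samples spread, which may be technical, and the number of arrays limits the precision.

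The mitochondrial ribosome translates the few messenger RNAs encoded by mitochondrial DNA, all of which specify subunits of the respiratory chain and of the ATP synthase. Its RNAs come from mitochondrial DNA, whereas its proteins are made in the cytosol from nuclear genes, imported and assembled into a large (Mrpl) and a small (Mrps) subunit. Some of these proteins descend from bacterial ribosomal proteins and others exist only in mitochondrial ribosomes. Naive T cells are small and quiescent, and stimulation through the T cell receptor and CD28 makes them grow and build up mitochondria before they divide.

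Facts of the whole series that bear on the members are few. Array medians of the deposited log2 values ran from 7.39 to 7.50, and values were quantile normalised, which removes any shift common to all genes. The 2 arrays of a group had correlations of 0.991 to 0.997 over all probe sets. All 85 member probe sets read above the lower quartile of the array on all 12 arrays, so none was lost to a filter on dim probe sets. Cd4 averaged 13.74 on the log2 scale in unstimulated WT cells, and the T cell marker list differed between genotypes by a median of 0.03 at 24 h. Markers of other blood cells were also read: no gene of the lists for B cells, NK cells, monocytes, neutrophils, dendritic cells, CD8 T cells or erythroid cells lay below the lower quartile on all arrays. The highest of them in unstimulated WT cells were Lyz2 (mean 12.89), Cd79b (12.56) and Ngp (12.34). There the log2 of the summed level of neutrophil markers was 15.53 on the unmarked array and 12.34 on the one marked Rep. That of T cell markers was 16.00 on both. Ppp2ca read 0.57 higher in transgenic cells over the 3 times (SE 0.05, limma adjusted p = 0.0044). Throughout, each gene's values are given for the unmarked array first and the array marked Rep second. Differences are in log2 units, and a member is said to have risen or fallen where limma's Benjamini-Hochberg adjusted p over the 23410 probe sets tested was under 0.05.

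Most of the mitochondrial ribosomal proteins were higher in stimulated than in unstimulated WT cells, by a moderate amount and in both subunits. None of the 6 groups was kept for 6 h or 24 h without antibodies, so stimulation and time in culture cannot be told apart. At 24 h against 0 h, 64 of 85 member probe sets (59 of 77 genes) had risen and 0 had fallen. Of all probe sets tested, 12.9% were called higher and 13.8% lower in this comparison. At 6 h, 60 had risen and 1 had fallen, against 12.6% called higher and 13.9% called lower among all probe sets. The median difference over the 77 genes was 0.54 at 24 h and 0.55 at 6 h, which are 1.45-fold and 1.46-fold, and over all genes it was -0.02 at 24 h and -0.0047 at 6 h. The groups did not overlap for 84 of the 85 probe sets at 24 h, 81 with the stimulated arrays higher and 3 with them lower. Groups of 2 arrays were separated this way for 27.5% (higher) and 32.7% (lower) of all probe sets. In bulk RNA, fewer cells of a type and less RNA per cell cannot be told apart. Leaving out 1 of the 12 arrays at a time, 47 of the 64 calls at 24 h and 41 of the 60 higher calls at 6 h were kept in all 12 fits.

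**Figure D1:**
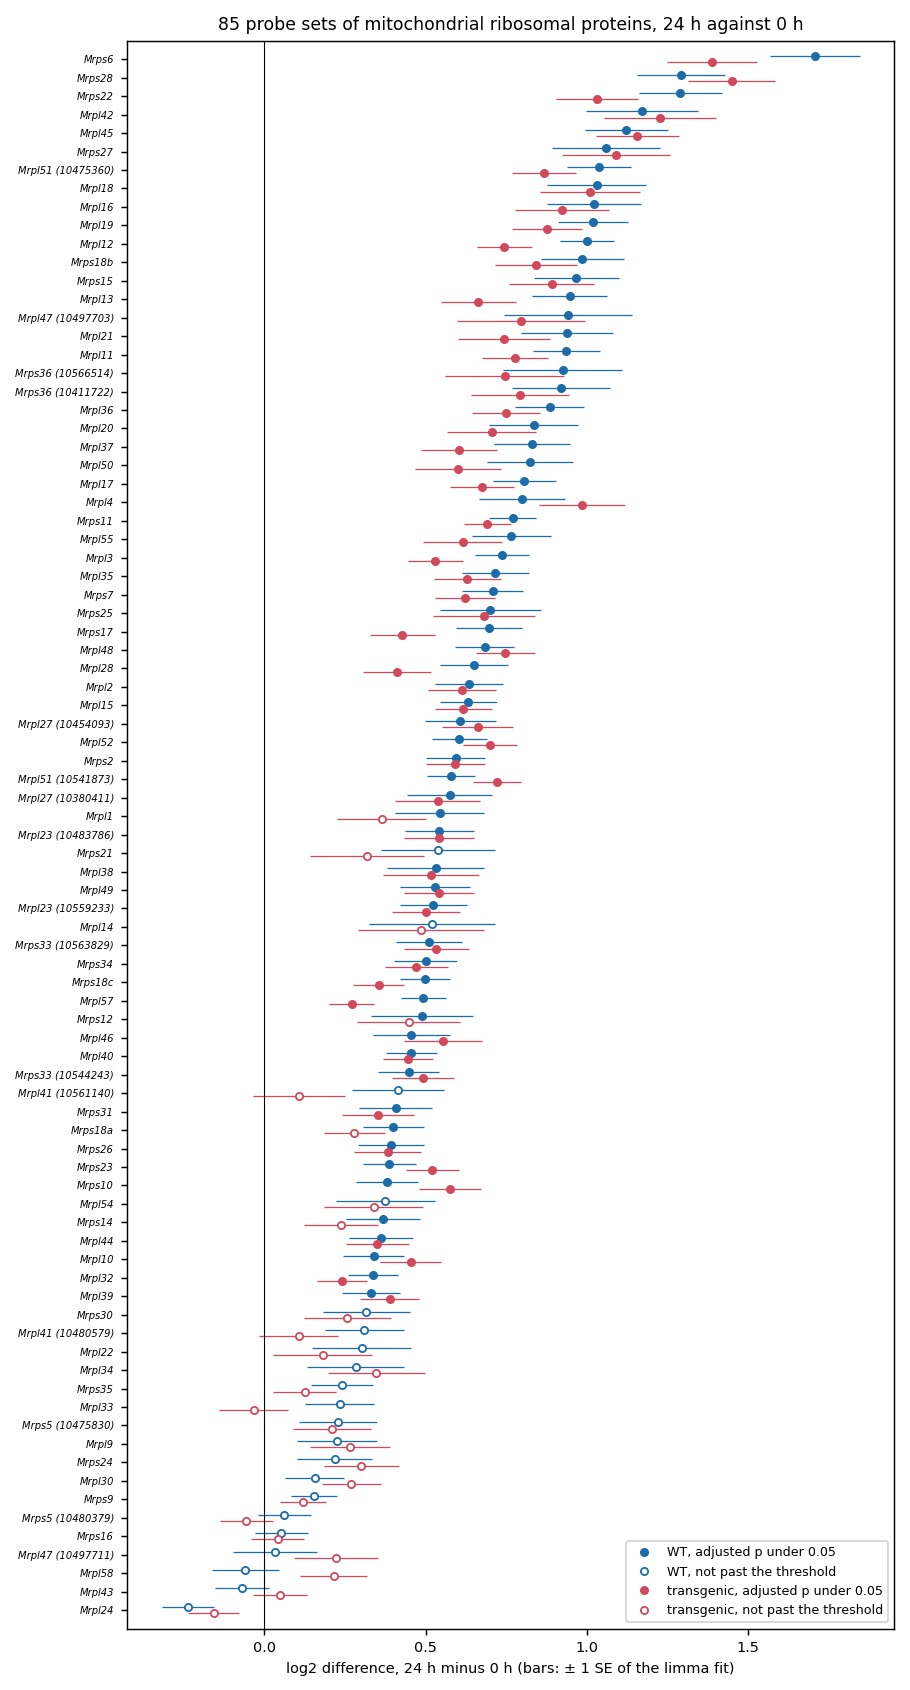
Log2 difference between 24 h and 0 h (horizontal axis) for each of the 85 probe sets (vertical axis, ordered by the WT value), with WT in blue, transgenic in red and bars of 1 SE of the limma fit. Filled points passed an adjusted p of 0.05, as 64 did in WT and 60 in transgenic cells and Mrpl24, Mrpl43 and Mrpl58 read below 0 in WT (53.6% of all probe sets did).

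Mrps6, a small subunit protein with a bacterial counterpart, had the largest rise of all members at 24 h in WT cells. It read 9.80 and 9.75 at 0 h, 11.64 and 11.45 at 6 h and 11.27 and 11.69 at 24 h. Every stimulated WT array lay more than a unit above both unstimulated arrays, and the fitted differences were 1.77 ± 0.14 at 6 h (SE, limma adjusted p = 3.8e-05) and 1.71 ± 0.14 at 24 h (adjusted p = 9.2e-05, 3.26-fold, n = 2 arrays per group). Mrps22, a small subunit protein without a bacterial counterpart, read 8.98 and 9.25 at 0 h, 10.36 and 10.25 at 6 h and 10.27 and 10.55 at 24 h, a rise of 1.29 ± 0.13 at 24 h (adjusted p = 0.00019). Their promoters are shown because these genes were among the largest risers, in lower case from RefSeq's GRCm38.p6 with capitals marking the motif named. The Mrps6 window (chr16:92058216-92058335, plus strand) ends just before the start site and holds GGGCGG, the core of sites bound by Sp1-type factors, and the Mrps22 window (chr9:98601680-98601799, minus strand) holds CCGGAAG, the core of sites bound by ETS factors.
Mrps6: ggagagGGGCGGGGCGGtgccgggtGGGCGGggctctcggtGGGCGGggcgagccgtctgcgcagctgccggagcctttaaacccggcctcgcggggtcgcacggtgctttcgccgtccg
Mrps22: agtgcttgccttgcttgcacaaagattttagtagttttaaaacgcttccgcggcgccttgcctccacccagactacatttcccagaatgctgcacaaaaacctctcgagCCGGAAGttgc

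Mrps28, another small subunit protein, rose from 8.86 and 8.94 to 10.63 and 10.38 at 6 h and stood at 10.12 and 10.27 at 24 h. Its differences from 0 h were 1.60 ± 0.14 at 6 h (limma adjusted p = 5.2e-05) and 1.29 ± 0.14 at 24 h (adjusted p = 0.00025). Mrps27, a small subunit protein with pentatricopeptide repeats, read 8.03 and 8.47 at 0 h, 9.72 and 9.52 at 6 h and 9.10 and 9.53 at 24 h. The unstimulated arrays of Mrps27 were further apart than those of the members above, and its rise was 1.36 ± 0.17 at 6 h and 1.06 ± 0.17 at 24 h. In the large subunit, Mrpl45, which sits where the new polypeptide leaves the ribosome, went from 9.21 and 9.15 to 10.25 and 10.36 at 24 h. That rise of 1.12 ± 0.13 had an adjusted p of 0.00037. Mrpl42 read 8.37 on both unstimulated WT arrays and 9.20 and 9.87 at 24 h, so the 2 arrays at 24 h differed by more than those of most members, and the rise was 1.17 ± 0.17 (adjusted p = 0.0012). Mrpl21 was among the largest at 6 h, from 8.78 and 8.93 to 10.13 and 10.27 (1.35 ± 0.14, adjusted p = 0.00015), and stood at 9.68 and 9.91 at 24 h. The rises named in this paragraph kept an adjusted p under 0.05 whichever array was left out.

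Members with smaller rises stayed within 0.33 to 0.39 at 24 h. Mrpl39 read 11.13 and 11.16 at 0 h and 11.45 and 11.50 at 24 h in WT cells (0.33 ± 0.09, limma adjusted p = 0.025), and its adjusted p reached 0.064 to 0.12 when any 1 of these 4 arrays was left out. Mrpl32, whose protein is trimmed by a mitochondrial protease before assembly, read 9.74 and 9.86 at 0 h and 10.14 on both arrays at 24 h (0.34 ± 0.08, adjusted p = 0.010). Without the unmarked WT array at 0 h, the adjusted p for Mrpl32 was 0.076. Mrps10 went from 9.19 and 9.09 to 9.52 and 9.51 (0.38 ± 0.10, adjusted p = 0.017), and the call was lost without the 0 h array marked Rep (0.11) or either 24 h array (0.068 and 0.069). Mrpl44, a large subunit protein related to RNase III, went from 8.01 and 7.88 to 8.17 and 8.45 (0.36 ± 0.10, adjusted p = 0.023), and its adjusted p was 0.14 without the 0 h array marked Rep and 0.16 without the 24 h array marked Rep, where the difference was 0.22. Mrps23 rose from 11.02 and 11.07 to 11.42 and 11.44 (0.39 ± 0.08, adjusted p = 0.0071), a call kept without any 1 array. These 5 members were chosen among those without overlap between 0 h and 24 h. That all their WT arrays at 24 h lay above all at 0 h therefore follows from the choice.

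Mrpl10, Mrpl4 and Mrpl18, large subunit proteins with bacterial counterparts, rose late. Mrpl4 read 10.96 and 10.92 at 0 h, 10.79 and 10.58 at 6 h and 11.78 and 11.71 at 24 h in WT cells. The level at 6 h lay below both unstimulated arrays without passing the test (-0.25 ± 0.13, limma adjusted p = 0.22), whereas 24 h exceeded 6 h by 1.05 ± 0.13 (adjusted p = 0.0018) and 0 h by 0.80 ± 0.13 (adjusted p = 0.0022). Mrpl18, which belongs to the central protuberance, read 10.04 and 10.22 at 0 h, 10.50 and 10.28 at 6 h and 11.18 and 11.15 at 24 h. Its difference was 0.26 at 6 h (adjusted p = 0.29) and 1.03 ± 0.15 at 24 h (adjusted p = 0.0013), and 24 h exceeded 6 h by 0.77 (adjusted p = 0.012, but 0.068 without the unmarked 24 h WT array and 0.075 without the 6 h one marked Rep). Mrpl10, which anchors the stalk of the ribosome, averaged 12.01 at 0 h over arrays that differed by less than 0.01, read 11.94 on both arrays at 6 h and 12.39 and 12.31 at 24 h (0.34 ± 0.10 against 0 h, adjusted p = 0.027). The call for Mrpl10 against 0 h was lost without any 1 of the 4 arrays compared, with adjusted p from 0.064 to 0.13. The promoters of Mrpl10 and Mrpl32 hold GCATGCG, the core of the site bound by nuclear respiratory factor 1, a regulator of nuclear genes for mitochondrial proteins, and are shown because both genes rose little. Not all of the 8 members found with this motif did so. From 0 h to 24 h the WT mean went from 11.08 to 12.06 for Mrps18b and from 9.56 to 10.36 for Mrpl17. The median rise over the 8 was 0.33. The window of Mrpl10 is chr11:97041432-97041581 on the plus strand and that of Mrpl32 is chr13:14613038-14613157 on the minus strand (GRCm38.p6, capitals mark the motif or its reverse, CGCATGC).
Mrpl10: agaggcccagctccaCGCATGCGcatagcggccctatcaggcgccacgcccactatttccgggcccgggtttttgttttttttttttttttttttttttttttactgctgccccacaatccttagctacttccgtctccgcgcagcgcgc
Mrpl32: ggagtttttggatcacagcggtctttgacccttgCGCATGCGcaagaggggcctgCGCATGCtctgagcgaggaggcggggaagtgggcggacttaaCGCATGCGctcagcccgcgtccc

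Calls between 24 h and 6 h were read beside their shares over all probe sets. In WT cells 8 probe sets were higher at 24 h than at 6 h and 1 was lower, and the median over genes was -0.01 (-0.11 within the unmarked arrays and 0.15 within those marked Rep). Of all probe sets, 7.49% were called higher and 5.86% lower. The 8 were Mrpl4, Mrpl10, Mrpl18, Mrpl48, Mrpl57, Mrpl58, Mrps18c and Mrps26, and the lower one was Mrps10. Mrpl4 alone kept its call in all 12 fits that left out an array. The count of 8 fell to 1 without the 6 h WT array marked Rep and to 2 without either 24 h WT array. It was 5 without the unmarked 6 h WT array or any 1 of the 4 arrays at 0 h (WT or transgenic), and 6 without any other array. The single lower call, for Mrps10, was lost without any 1 of the 4 WT arrays at 6 h and 24 h or either transgenic array at 0 h, with adjusted p from 0.057 to 0.14. By the 3 comparisons among the times, 53 probe sets had risen at 6 h and at 24 h with no call between the 2, 5 had risen at 24 h alone and above 6 h, and 16 had no call in WT cells. The shares of all probe sets with these patterns were not counted, and 12.6% were called higher at 6 h. Mrps18c, a small subunit protein, read 10.39 and 10.46, then 10.70 and 10.56, then 10.90 and 10.95. Its 24 h call against 6 h was lost without any 1 array except the unmarked WT array at 6 h (adjusted p from 0.053 to 0.21). Mrps26, a small subunit protein found only in mitochondrial ribosomes, read 9.41 and 9.59, then 9.50 and 9.35, then 9.84 and 9.95. Its rise at 24 h against 0 h (0.39, limma adjusted p = 0.020) was lost without the unmarked 0 h array (0.13) or the 24 h array marked Rep (0.11).

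Mrpl58 was the only member called lower than at 0 h. It encodes a peptidyl-tRNA hydrolase built into the large subunit that can rescue stalled ribosomes. It read 10.82 and 10.81 at 0 h, 10.45 and 10.29 at 6 h and 10.80 and 10.72 at 24 h in WT cells. The arrays at 6 h lay below all other WT arrays, and Mrpl58 fell by 0.45 at 6 h (SE 0.10, limma adjusted p = 0.011). Its difference at 24 h was -0.06 (adjusted p = 0.75), and 0.01 after median centring in place of quantile normalisation. The call at 6 h was lost without either 0 h WT array or the 6 h WT array marked Rep, with adjusted p from 0.052 to 0.073. In transgenic cells Mrpl58 read 10.65 and 10.58, then 10.46 and 10.21, then 10.91 and 10.74. There the difference at 6 h was -0.27 (adjusted p = 0.093, and 0.031 with the mark Rep as a block), and it was -0.40 (adjusted p = 0.044) without the unmarked 6 h array and -0.15 without the one marked Rep.

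**Figure D2:**
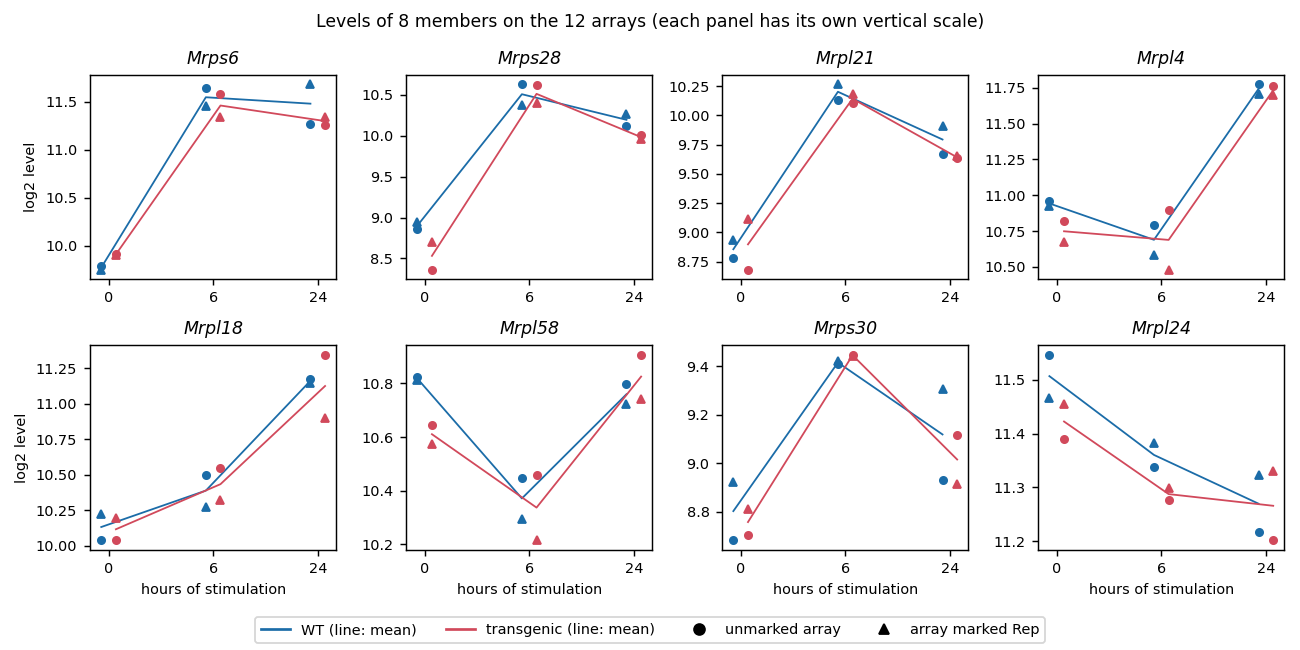
Log2 level (vertical axis, scaled separately in each panel) against hours of stimulation (horizontal axis) for 8 members, with each array as a point, circles for unmarked arrays, triangles for arrays marked Rep, and lines through the means of WT (blue) and transgenic (red). Mrps6, Mrps28 and Mrpl21 were high by 6 h, Mrpl4 and Mrpl18 at 24 h, and Mrpl58 was lowest at 6 h in both genotypes.

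Some members rose at 6 h without a call at 24 h in WT cells: Mrpl33, Mrpl54, Mrps9 and Mrps30. That of Mrpl33 (0.33, limma adjusted p = 0.047) was lost in 10 of the 12 fits that left out an array, all except those without the unmarked WT arrays at 0 h and 6 h, with adjusted p from 0.058 to 0.26. Mrps30, which despite its symbol is a protein of the large subunit, read 8.68 and 8.92 at 0 h, 9.41 and 9.42 at 6 h and 8.93 and 9.31 at 24 h. Its arrays at 6 h were close together and lay above all other WT arrays. The rise at 6 h was 0.61 ± 0.13 (limma adjusted p = 0.0081, and 0.064 without the unmarked 0 h array), and the value at 24 h was 0.32 (adjusted p = 0.12). Without the unmarked 24 h array that value was 0.50 (adjusted p = 0.028), without the 24 h array marked Rep it was 0.13, and without the unmarked 0 h array it was 0.20. Mrps9, a protein in the head of the small subunit, read 9.25 and 9.28, then 9.61 and 9.53, then 9.37 and 9.46, with a rise of 0.31 ± 0.07 at 6 h (adjusted p = 0.011). That call was lost without the unmarked WT array at 0 h (0.062) or at 6 h (0.075). Mrpl54 read 10.35 and 10.66, then 10.88 and 11.11, then 10.78 and 10.99, so the 2 arrays of each pair differed by a like amount at every time. With the mark Rep as a block, Mrpl54 also passed at 24 h (0.37, adjusted p = 0.0074 against 0.11 without the block). Its rise at 6 h (0.49, adjusted p = 0.044) lost its call without any 1 of 7 arrays: either transgenic array at 6 h or 24 h, either WT array at 6 h or the unmarked WT array at 0 h, with adjusted p from 0.057 to 0.25.

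Members with no call in either genotype and at either time numbered 13 probe sets of 12 genes: Mrpl9, Mrpl14, Mrpl22, Mrpl24, Mrpl34, both probe sets of Mrpl41, 1 of Mrpl47, Mrps5's probe set 10480379, Mrps16, Mrps21, Mrps24 and Mrps35. The share of all probe sets without any such call was not counted. Mrpl24, whose protein lies at the exit of the polypeptide tunnel, had the lowest difference from 0 h of all members at 24 h in WT cells. It read 11.55 and 11.47 at 0 h, 11.34 and 11.38 at 6 h and 11.22 and 11.32 at 24 h in WT cells. All stimulated WT arrays of Mrpl24 lay below both unstimulated ones, and the difference of -0.24 ± 0.08 at 24 h had an adjusted p of 0.058, or 0.046 with the mark Rep as a block. Mrpl43, not one of these 12 genes, was flat at 24 h in WT cells (-0.07, adjusted p = 0.62). In transgenic cells it had risen at 6 h, from 10.71 and 10.92 to 11.12 and 11.09. That call was lost without the unmarked transgenic array at 0 h (difference 0.19) or either one at 6 h (0.27 and 0.30). Mrpl14 read 0.52 higher at 24 h, close to the median member, but with an SE of 0.19 (adjusted p = 0.083), the widest error of any member named here apart from 1 probe set of Mrpl47.

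Members of both subunits rose. Of 55 probe sets of the large subunit, 41 had risen at 24 h in WT cells with a median over genes of 0.57, and of 28 of the small subunit, 21 had risen with a median of 0.50. Members with a bacterial counterpart had a median of 0.61 at 24 h (36 of 50 probe sets risen) and those without had 0.49 (23 of 29). Single genes ran from -0.24 to 1.71 in the first of these classes and from -0.07 to 1.29 in the second, and the differences between classes were not tested. In transgenic cells at 24 h the medians were 0.54 for the large and 0.49 for the small subunit. Mrpl12, the stalk protein that also binds the mitochondrial RNA polymerase Polrmt, read 10.02 and 10.05 at 0 h, 11.18 and 11.15 at 6 h and 10.97 and 11.10 at 24 h, which put its rise at 1.13 ± 0.08 at 6 h and 0.9995 ± 0.08 at 24 h (limma adjusted p = 3.2e-05 and 0.0001). Polrmt itself read -0.05 at 24 h (adjusted p = 0.81). Mrps12, the counterpart of a bacterial protein at the decoding centre, read 7.90 and 7.84, then 8.54 and 8.30, then 8.19 and 8.53. Mrps12 passed narrowly at 24 h (0.49 ± 0.16, adjusted p = 0.0499), and did not pass with values as deposited (0.051), all rows of the table (0.054), the mark Rep as a block (0.053) or only the groups compared (0.079). Its 24 h call was also lost without any 1 array except the unmarked 24 h WT array and the 2 transgenic arrays at 6 h, and without the 24 h WT array marked Rep its difference was 0.32 (adjusted p = 0.28). Its rise at 6 h (0.55, adjusted p = 0.031) was lost without either WT array at 0 h or the unmarked one at 6 h, with adjusted p from 0.088 to 0.18.

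A few symbols of the family name proteins that sit elsewhere. Mrps18a, like Mrps30, encodes a large subunit protein, and it read 10.92 and 11.07 at 0 h, 11.54 and 11.45 at 6 h and 11.39 on both arrays at 24 h. Its rise in WT cells was 0.51 ± 0.09 at 6 h (limma adjusted p = 0.0034) and 0.40 ± 0.09 at 24 h (adjusted p = 0.013), the latter lost without the unmarked 0 h array (0.087) or either 24 h array (0.051 and 0.058). Mrps36 is now known as a subunit of the 2-oxoglutarate dehydrogenase complex rather than of the ribosome. Its 2 probe sets rose by 0.92 each at 24 h in WT cells, 10411722 from 7.17 and 7.31 to 8.05 and 8.27 and 10566514 from 6.96 and 7.11 to 7.80 and 8.12. The calls had adjusted p of 0.0020 and 0.0053. Of the 8 genes with 2 probe sets, Mrpl47 and Mrps5 had probe sets that differed in call. For Mrpl47, a member of the L29 family, probe set 10497703 rose by 0.94 ± 0.20 at 24 h (adjusted p = 0.0069, and 0.053 without the unmarked 0 h array), from 8.29 and 8.71 to 9.11 and 9.77. Without the 24 h array marked Rep the rise was 0.61. The second, 10497711, read 7.25 and 7.31 at 0 h and 7.25 and 7.38 at 24 h, a difference of 0.03 that was -0.02 with values as deposited and -0.03 without the 24 h array marked Rep. For Mrps5, probe set 10475830 rose in transgenic cells at 6 h (0.41, adjusted p = 0.032) and lost that call without any 1 of the 4 arrays compared (0.052 to 0.18). Its WT value at 6 h was 0.27 (adjusted p = 0.14), or 0.42 (adjusted p = 0.045) without the 6 h WT array marked Rep. The second probe set, 10480379, had no call. Which transcripts or near-identical copies each probe set reads cannot be told from the table.

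Other parts of the mitochondrial translation system were read from lists of genes, each described by its counts and median. The 4 measured ribosome subunits with other symbols had all risen at 24 h in WT cells: Chchd1 by 0.67, Dap3 by 0.55, Ptcd3 by 0.52 and Gadd45gip1 by 0.42, with limma adjusted p from 0.0012 to 0.021. Of 26 probe sets of assembly factors, 11 had risen and 2 had fallen, with a median of 0.18. Among them C1qbp, a matrix protein needed for mitochondrial translation, rose by 1.65 ± 0.09, the GTPase Noa1 by 1.27 ± 0.10 and Mrm3, which methylates the RNA of the large subunit, by 1.15 ± 0.11. Translation factors had 8 risen and 1 fallen of 15 (median 0.40), led by the elongation factor Gfm1 (1.11 ± 0.12) with the recycling factor Mrrf at 0.74. Of 16 mitochondrial aminoacyl-tRNA synthetases, 4 had risen and 1 had fallen (median 0.18), with Rars2 up by 1.03 and Sars2 by 0.90. Genes of mitochondrial transcription and RNA maintenance had 8 risen and 1 fallen of 18 (median 0.34), and the one that fell, Polg2, the accessory subunit of the mitochondrial DNA polymerase, dropped by 1.54 (adjusted p = 7.9e-05).

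Ribosome genes outside mitochondria gave a different picture. Nucleolar genes for making cytosolic ribosomes had risen in 37 of 37 probe sets at 6 h and 34 of 37 at 24 h in WT cells, with medians of 1.65 and 1.03, and included Rrp1b (1.90 at 24 h), the pseudouridine synthase Dkc1 (1.78) and Gnl3 (1.62). In the direct comparison 19 of those 37 were lower at 24 h than at 6 h (median -0.43), where 1 of 85 member probe sets was. The proteins of the cytosolic ribosome had 4 risen and 6 fallen of 215 probe sets at 24 h (59 genes, median -0.07). As checks of stimulation, Il2ra rose by 3.08 and Myc by 1.92 at 24 h (limma adjusted p = 0.00026 and 0.00022). A further check, Cd69, rose by 1.40 at 6 h in WT cells (adjusted p = 0.0078). At 24 h it read 0.77 higher without passing the test (adjusted p = 0.1).

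**Figure D3:**
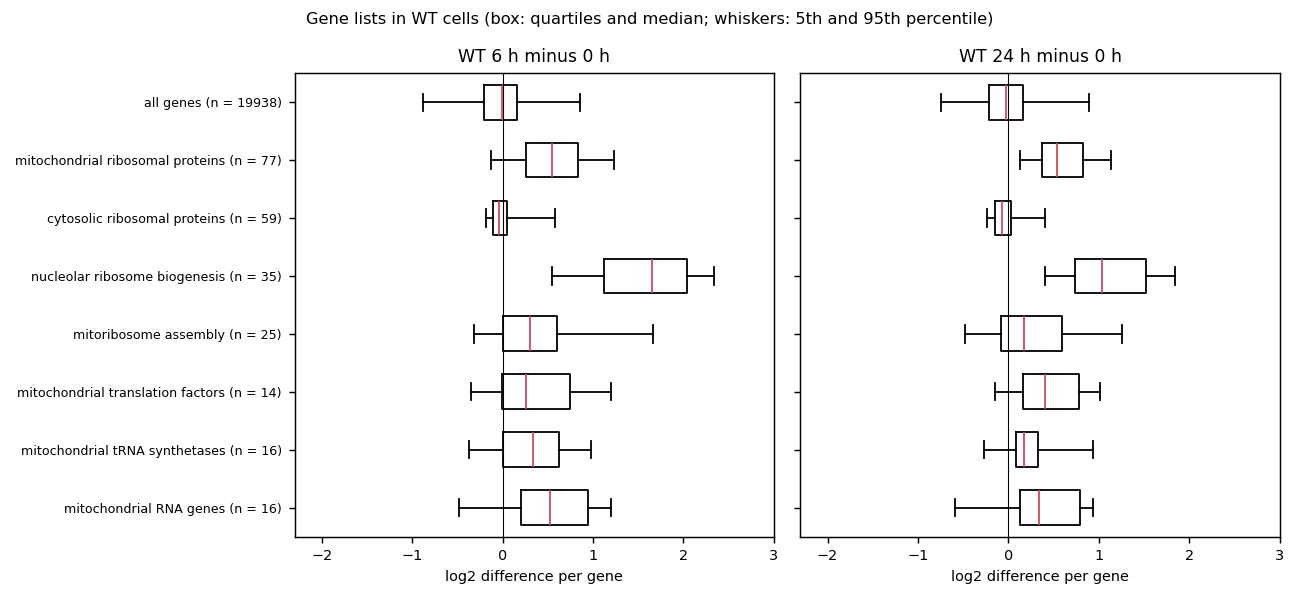
Log2 differences per gene (horizontal axis) at 6 h and 24 h against 0 h in WT cells for all genes and 7 lists, with boxes from the lower to the upper quartile, a red line at the median and whiskers at the 5th and 95th percentiles. The box of the 77 mitochondrial ribosomal proteins lies above 0 at both times, the one of nucleolar genes lies higher, and the one of cytosolic ribosomal proteins lies close to 0.

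Most members also rose in transgenic cells. At 6 h 62 member probe sets had risen and 0 had fallen, against 12.5% called higher and 12.9% lower among all probe sets, with a median of 0.60 over genes. At 24 h 60 had risen and 0 had fallen, against 12% and 11.8%, with a median of 0.52. The count at 24 h fell to 39 without the unmarked transgenic array at 24 h, and 36 of the 60 calls were kept in all 12 fits that left out an array. Mrps28 had the largest rise at 6 h, from 8.36 and 8.70 to 10.62 and 10.40 (1.98 ± 0.14, limma adjusted p = 2.6e-05), and stood at 10.00 and 9.96 at 24 h (1.45 ± 0.14). Mrps6 went from 9.92 and 9.91 to 11.58 and 11.34 at 6 h and to 11.26 and 11.34 at 24 h, a rise of 1.39 ± 0.14 (adjusted p = 0.00031). The late pattern of Mrpl4 was there too, with 10.82 and 10.68 at 0 h, 10.90 and 10.48 at 6 h and 11.76 and 11.70 at 24 h (1.04 ± 0.13 against 6 h, adjusted p = 0.0017).

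Across the 85 probe sets the WT and transgenic responses correlated with r = 0.96 at 6 h and 0.93 at 24 h. Members share arrays, so this is a description. A rise was called in both genotypes for 58 probe sets at 6 h and 60 at 24 h, and 51 probe sets of 46 genes had risen in both genotypes at both times. Neither the shares of all probe sets called in both genotypes nor the correlation over all probe sets was computed. Agreement particular to the members therefore cannot be read from these values. In transgenic cells 5 of 85 probe sets were higher and 7 lower at 24 h than at 6 h, where all probe sets gave 7.89% higher and 6.42% lower. Both counts lie near those shares. The 5 were Mrpl4, Mrpl10, Mrpl18, Mrpl48 and Mrpl58, all of which had the call in WT as well. The 7 lower ones were Mrpl3, Mrpl15, Mrpl21, Mrps10, Mrps17, Mrps18b and Mrps28. None of those 7 kept the call in every fit that left out an array: the counts of higher and lower calls were 3 and 1 without the unmarked 6 h transgenic array, 1 and 1 without the 6 h one marked Rep, 1 and 0 without the unmarked 24 h one and 4 and 1 without the 24 h one marked Rep. Mrpl4 was the 1 member that kept the higher call in all 12. Whether 24 h against 6 h differs between the genotypes was not tested. The promoter of Mrpl3 is shown as a second one with CCGGAAG close to the start site, from a gene that rose by 0.87 at 6 h and 0.74 at 24 h in WT cells (chr9:105053148-105053267, plus strand, GRCm38.p6, capitals mark the motif).
Mrpl3: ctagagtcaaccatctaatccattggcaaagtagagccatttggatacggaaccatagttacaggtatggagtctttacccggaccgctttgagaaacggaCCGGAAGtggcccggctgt

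**Figure D4:**
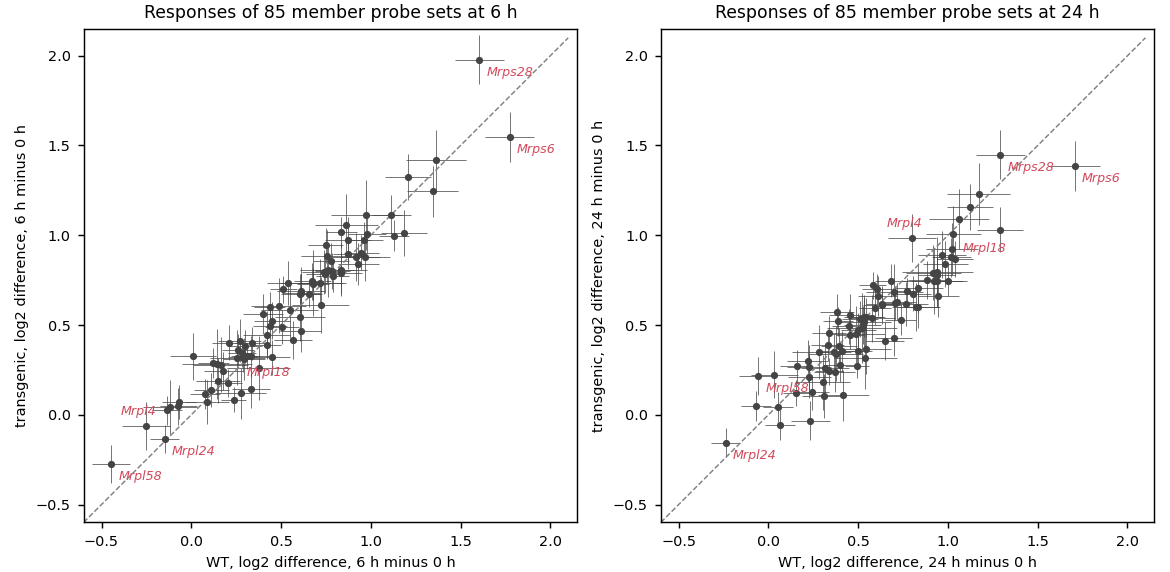
Log2 difference from 0 h in transgenic cells (vertical axis) against that in WT cells (horizontal axis) at 6 h (left) and 24 h (right), with each of the 85 probe sets as a point, bars of 1 SE and a dashed line of equal response. Points follow the dashed line at both times (r = 0.96 and 0.93 across members). Of the 85, 26 lie below it at 6 h and 60 at 24 h. The share of all probe sets below it was not counted. Leaving out 1 array, the median genotype difference in the 24 h response over member genes ran from -0.13 to 0.01.

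No member differed between the genotypes by the test. At 0 h, 6 h and 24 h, and over the 3 times together, 0 of 85 probe sets had an adjusted p under 0.05. The test at single times did not call Ppp2ca either, so it could miss differences of that size. Ppp2ca read 0.74 higher in transgenic cells at 0 h (limma adjusted p = 0.055), 0.38 at 6 h and 0.60 at 24 h (adjusted p = 0.28). Among all probe sets 0.00854% were called higher in transgenic cells at each time, 0.0214% over the 3 times, and 0.00427% lower over the 3 times. With unadjusted p under 0.05 the members numbered 3 at 0 h, 0 at 6 h, 8 at 24 h and 12 over the 3 times, where all probe sets gave 3.56%, 2.61%, 4.26% and 6.34%. The smallest p over the 3 times belonged to Mrps10, a protein in the head of the small subunit. In transgenic cells it read 8.75 and 8.70 at 0 h, 9.57 and 9.77 at 6 h and 9.21 and 9.39 at 24 h, below the WT arrays at each time. The difference was -0.28 ± 0.06 over the 3 times (limma adjusted p = 0.43) and -0.41 ± 0.10 at 0 h (unadjusted p = 0.0021, adjusted p = 1). Next over the 3 times came Mrps35 (-0.21 ± 0.06) and Mrpl11, a protein at the base of the stalk (-0.20 ± 0.06), with adjusted p of 0.66 and 0.69. At 24 h the smallest p was that of Mrps17, with WT arrays at 9.19 and 9.43 and transgenic ones at 8.98 and 8.95 (-0.35 ± 0.10, unadjusted p = 0.0075, adjusted p = 1), or -0.23 without the WT array marked Rep. Mrps35 read 9.63 and 9.88 in WT and 9.45 and 9.46 in transgenic cells at 24 h, and Mrpl11 read 10.30 and 10.52 against 10.09 and 10.11. Without that WT array the differences at 24 h went from -0.30 to -0.17 for Mrps35 and from -0.31 to -0.20 for Mrpl11.

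Most members nevertheless read slightly lower in transgenic cells. The difference was below 0 for 69 of 85 probe sets at 0 h, 60 at 6 h, 80 at 24 h and 80 over the 3 times, where all probe sets gave 56.2%, 54.5%, 52.9% and 57.0%. At 24 h both transgenic arrays lay below both WT arrays for 49 probe sets and above them for 0, and among all probe sets 16.2% and 14.5% were separated in these directions. The median over genes was -0.14 at 24 h, -0.08 at 0 h and -0.03 at 6 h. The size at 24 h differed between the pairs of arrays, -0.05 in the unmarked pair and -0.20 in the pair marked Rep, and leaving out 1 array gave -0.19 to -0.06. The median at 6 h turned to 0.02 without the transgenic array marked Rep or the unmarked WT array at that time. The nucleolar list read lower too at 24 h, with a median of -0.19 (-0.05 unmarked, -0.32 marked Rep) and 37 of 37 probe sets below 0.

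Markers of other cell types also differed between the genotypes, and the neutrophil and monocyte lists did so in opposite directions in the 2 pairs of arrays. At 24 h 7 of 7 neutrophil markers read higher in transgenic cells, with a median difference of 0.78, which was -0.83 in the unmarked pair and 2.39 in the pair marked Rep. The log2 of their summed level was 14.68 and 10.94 in WT and 13.89 and 13.57 in transgenic cells. Monocyte markers were higher for 6 of 6 genes (median 0.82, -0.17 unmarked and 1.81 marked Rep), with summed levels of 13.97 and 11.71 in WT and 13.63 and 13.82 in transgenic cells. Lymphoid lists also read higher in transgenic cells at 24 h, and in both pairs. CD8 T cell markers were higher for 2 of 2 genes (median 0.53, 0.75 unmarked and 0.30 marked Rep), NK markers for 4 of 4 (0.49, 0.77 and 0.22) and B cell markers for 5 of 5 (0.36, 0.16 and 0.50). The WT array marked Rep was the one with low myeloid markers, at 24 h as at 0 h and 6 h. Their part in the members' difference was not tested, and in the unmarked pair, where the median of the neutrophil markers was lower in transgenic cells, the members' median was -0.05. Between 0 h and 24 h in WT cells 7 of 7 neutrophil markers decreased (median -1.06), and NK markers had a median of -1.07, beside the members' rise. CD8 T cell markers went the other way, with a median of 0.77, and Cd8a averaged 7.85 at 0 h and 9.25 at 24 h. The rise of the members from 0 h to 24 h had a median of 0.56 in the unmarked pair and 0.57 in the pair marked Rep.

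**Figure D5:**
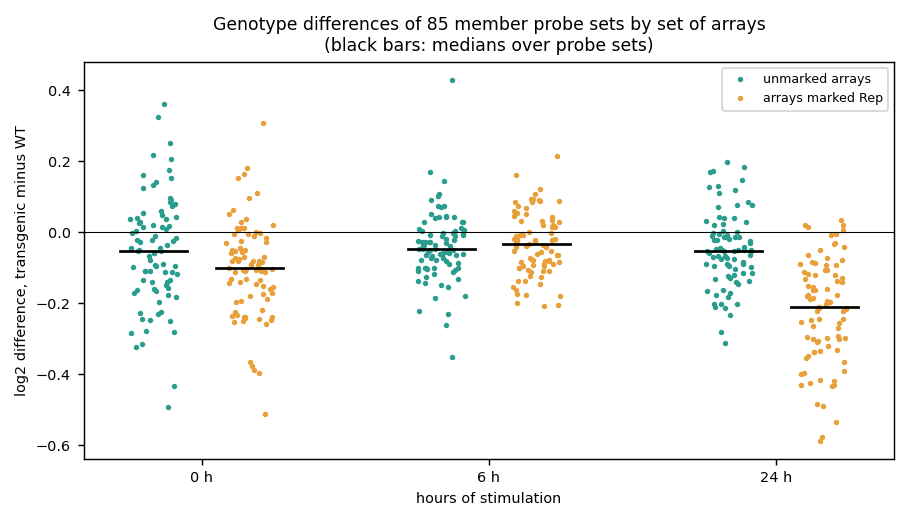
Log2 difference between transgenic and WT cells (vertical axis) for each of the 85 probe sets at 0 h, 6 h and 24 h (horizontal axis), computed within the unmarked pair (green) and the pair marked Rep (orange), with black bars at the medians over probe sets. Most points lie below 0, and the points furthest below it are those of the pair marked Rep at 24 h.

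The test of the responses themselves also gave no call. The difference between genotypes in the 6 h and 24 h responses had 0 of 85 members called and 0 of all probe sets, with unadjusted p under 0.05 for 0 members against 1.79% of all probe sets at 6 h and 2.67% at 24 h. The median over genes was 0.05 at 6 h, turning to -0.03 without the 6 h WT array marked Rep and to -0.0033 without the unmarked 6 h transgenic array. It was -0.03 at 24 h, and from -0.13 without the unmarked 24 h WT array and -0.12 without the 0 h WT array marked Rep to 0.01 without the 24 h WT array marked Rep. The smallest p at 6 h was for Mrps28, whose rise was 0.37 ± 0.19 larger in transgenic cells (unadjusted p = 0.084, limma adjusted p = 1). That difference was 0.21 without the unmarked 0 h transgenic array and 0.25 without the 6 h WT array marked Rep. At 24 h it was for Mrpl57, a large subunit protein with rises of 0.49 (WT) and 0.27 (transgenic) that differed by -0.22 ± 0.10 (unadjusted p = 0.050, adjusted p = 1).

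The promoters of the members were searched for 5 short motifs on both strands in RefSeq's table (GRCm38.p6), from 250 bases before to 50 bases after each start site. Of the 77 genes, 68 had an entry. CCGGAAG was in 25 of the 68 (36.8%), including Mrps22 and Mrpl3 above, against 8.86% of all promoters in the table and 13.6% of those of genes on the array. Among cytosolic ribosomal proteins the share in this same window was 38.3%. Without the 50 bases after the start site CCGGAAG was in 17 of the 68 members and in 29.8% of cytosolic ribosomal proteins. AAGATGG, the core of sites bound by YY1, was in 13 (19.1% against 6.34% of all and 7.28% of those of array genes). Before the start site alone it was in 8.82% of members, against 4.49% of all promoters and 4.87% of those of array genes. GCATGCG was in 8 (11.8% against 3.58% of all and 5.39% of those of array genes), and those 8 genes were Mrpl9, Mrpl10, Mrpl17, Mrpl22, Mrpl32, Mrpl33, Mrpl39 and Mrps18b. CACGTG, the E-box bound by Myc among others, was in 5 (7.35% against 7.15% of all and 9.5% of those of array genes), and GGGCGG was in 34 of the 68, where 35.7% of all promoters and 52.9% of those of array genes held it. Genes with CACGTG had a median rise of 0.83 at 24 h and those without 0.53. For GCATGCG the medians were 0.33 and 0.57, for CCGGAAG 0.50 and 0.54, for AAGATGG 0.71 and 0.52 and for GGGCGG 0.54 and 0.51. With the window before the start site alone the medians with and without the motif were 0.59 and 0.53 for CCGGAAG, which turns their order, 0.57 and 0.54 for AAGATGG and 0.54 and 0.50 for GGGCGG. No order was tested among these medians. Mrpl12, Mrpl45 and Mrps10 were among 16 genes with none of the 5 motifs, with rises at 24 h of 1.12 for Mrpl45 and 0.38 for Mrps10. One of the 5 promoters with CACGTG, that of Mrpl20, is shown because this gene rose by 0.97 at 6 h and 0.84 at 24 h in WT cells (chr4:155802758-155802877, plus strand, capitals mark the motif).
Mrpl20: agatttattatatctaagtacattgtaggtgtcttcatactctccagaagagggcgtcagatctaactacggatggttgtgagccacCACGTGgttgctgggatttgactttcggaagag

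Many members share a short stretch of DNA with a neighbour that starts on the other strand, a point looked at after the promoter table had been seen. Such a start site lay within 500 bases for 23 of the 68 genes (33.8%), against 12.8% of the array genes with an entry. Mrps11 and Mrpl46 face each other across 41 bases, which hold GGGCGG and are shown whole (chr7:78783090-78783130, plus strand, GRCm38.p6, capitals mark the motif).
Mrpl46 and Mrps11: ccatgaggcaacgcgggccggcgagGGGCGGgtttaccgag

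Both genes of that pair rose at 24 h in WT cells. Mrps11 read 8.68 and 8.69 at 0 h and 9.38 and 9.52 at 24 h, and Mrpl46 read 9.45 and 9.62 at 0 h and 10.00 and 9.99 at 24 h. Their differences were 0.77 (limma adjusted p = 0.00016) and 0.46 (adjusted p = 0.020), the latter lost without the unmarked 0 h array (0.12) or either 24 h array (0.076 and 0.078). Partners moved in both directions. Of 20 partners measured, 9, among them the member Mrpl46, had risen and 5 had fallen at 24 h, against 12.9% and 13.8% of all probe sets. Mrps12 shares its stretch with Sars2, which rose by 0.90. Mrpl18 lies beside Tcp1, a subunit of the cytosolic chaperonin, and Tcp1 rose by 0.96 already at 6 h (adjusted p = 7.5e-05), when Mrpl18 read 0.26. Mrpl57 lies beside Ska3, a kinetochore gene, which had 0.07 at 6 h and rose by 2.81 at 24 h (adjusted p = 0.0097), while Mrpl57 rose by 0.24 and 0.49, the first a call lost without any 1 of the 4 arrays compared (adjusted p from 0.087 to 0.14). Mrpl2 lies beside Klc4, a kinesin light chain that fell by 0.98 (adjusted p = 0.00033), while Mrpl2 rose by 0.63 at 24 h. Mrpl43, flat at 24 h, lies beside the mitochondrial helicase gene Twnk, which rose by 0.94 at 6 h and 0.46 at 24 h.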

How the data were processed

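The authors deposited log2 values, 1 for every array and probe set. The tools, normalisation and genome build behind it are not given in the sources used here. Symbols came from the platform annotation. Because array medians spanned 0.110, above a limit of 0.1, values were quantile normalised. limma 3.58.1 (R 4.3.3) fitted the 12 arrays with a mean for each of 6 groups (6 residual and 3.05 prior degrees of freedom) and gave 12 comparisons, each adjusted by Benjamini-Hochberg over 23410 probe sets with a symbol. The procedure was tested on simulated data. A gene's difference is the mean of its probe sets. Members and lists were chosen with earlier results of these data known, and Mrpl47 was moved to the members with a bacterial counterpart after values were seen.

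Genes given on every array were the 6 largest and 6 smallest rises at 24 h and the 4 largest at 6 h among those past the threshold in both genotypes without overlap, up to 4 called at 6 h and not at 24 h, the 3 smallest p in each genotype comparison, genes whose probe sets differed in call, and Mrpl12, Mrps12, Mrps36, Mrps30 and Mrps18a. Others were chosen after their values were seen: Mrpl4, Mrpl18, Mrps18c, Mrps26, Mrpl24, Mrpl3, Mrpl20, Mrps11 and Mrpl46. From each other list up to 3 genes with the smallest p at 24 h were named, with Ppp2ca and activation genes as checks.

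The mark Rep was checked as a pairing: deviations of same-marked arrays from their group means correlated in all 15 pairs of groups (0.138 to 0.591), so the block was run for every result. Promoters were those of RefSeq's GRCm38.p6 table. Other computing was done in Python 3.11.15 with numpy 2.4.6 and pandas 2.3.3, and plots in matplotlib 3.10.9.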

Additional observations from a re-analysis of the deposited data

How the results depend on the processing

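Against 0 h, the counts of members that had risen stayed within 1.5 times under every alternative, except in transgenic cells at 24 h. Leaving out 1 array gave 44 to 59 at 6 h and 49 to 65 at 24 h in WT cells, and 48 to 62 and 39 to 60 in transgenic cells. Members lower than at 0 h numbered 1 in WT cells at 24 h without the 40% dimmest probe sets and with the replicate block, and 1 in transgenic cells at 6 h with the block. Leaving out 1 array gave 0 to 1 lower in either genotype at 6 h.

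Between 24 h and 6 h the counts moved more. In WT cells 5 were higher with median centring and 2 with only the groups compared. Lower ones were 0 with values as deposited, median centring, trended and robust moderation or only the groups compared, and 2 with the replicate block. Leaving out 1 array gave 1 to 6 higher and 0 to 1 lower. In transgenic cells 3 were higher with median centring and 1 with only the groups compared, and 4 were lower with values as deposited, 4 with median centring and 3 with only the groups compared. Leaving out 1 array gave 1 to 5 higher and 0 to 8 lower. The cause was not tested.

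The genotype counts were 0 in every alternative run. Leaving out 1 array gave medians of -0.10 to 0.0242 for the genotypes at 6 h and -0.0275 to 0.11 for the difference in the 6 h response, so both turned sign. With median centring, Mrpl10 at 6 h turned to 0.0013 and Mrpl58 at 24 h to 0.0106 in WT cells. For Mrpl47 probe set 10497711, values as deposited gave -0.0089 at 6 h and -0.0155 at 24 h in WT cells, and leaving out 1 array gave -0.0515 to 0.0704 and -0.0314 to 0.0985. The replicate block, which uses the pairing by the mark Rep, changed no other count of members by over 1.5 times. With 2 arrays per group, differences of the size of the smaller rises lay near the threshold.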
